A study of Mus musculus with 16 samples.

Results

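The 9 genes Pf4, Ppbp, Gp9, Gp1bb, Gp5, Itga2b, Vwf, Treml1 and F2r encode proteins of platelets and of megakaryocytes, the bone marrow cells that release platelets. They were taken by symbol from the 27998 genes counted in each of 8 single-cell RNA sequencing libraries, and all 9 were found. The libraries came from lineage-depleted bone marrow of 16 C57BL/6 mice, 4 in each of 4 groups, and each library held a pool of 2 mice of 1 group that were told apart by hashtag antibodies. WT mice carried floxed Tet2 alleles, by the study's methods without Cre, and Tet2-KO mice were Vav-Cre Tet2-/- mice, in which Cre is driven by a promoter active throughout the blood system. Cre was thus present in the Tet2-KO groups only, and an effect of Cre and one of Tet2 loss cannot be told apart. Mice were 6 to 12 weeks old by the labels and were injected for 5 weeks with vehicle or with IL1β at a daily dose of 500 ng. The counts are unique molecular identifiers (UMIs) per gene and cell barcode, from a kit that reads transcript ends, and the reads of Tet2 do not show its deletion.

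Of 121405 barcodes, 94917 were kept and 57896 were assigned to a mouse, with 698 to 6432 cells per mouse. For any pair of libraries, at most 0.512% of the cells of the smaller one carried a barcode also found in the other. Levels are given as CPM, UMI counts scaled to the same total for every sum, for the UMIs summed over a class of cells in a mouse, so they compare mice and classes for 1 gene. The genes were read in 2 classes, 2161 megakaryocyte progenitor-like (MegP-like) cells, 41 to 383 per mouse, and 5608 hematopoietic stem cell-like (HSC-like) cells, 53 to 673 per mouse. The 9 genes took no part in the clustering and were no markers for naming, although other genes that go with them were. The MegP-like cells carried the markers Clec1b, Cavin2 and Rab27b and the HSC-like cells Hlf, Mecom and Gcnt2 among their leading genes. No cluster was named for multipotent progenitors or for megakaryocyte-erythroid progenitors. Such cells may lie in the HSC-like class or in unnamed clusters, which was not tested.

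Platelets start a clot when the glycoprotein Ib-IX-V complex catches von Willebrand factor (Vwf) on an injured vessel wall. Gp1bb, Gp9 and Gp5 encode subunits of that complex, and Itga2b (CD41) encodes the alpha chain of the integrin that then binds fibrinogen and links platelets to each other. Pf4 and Ppbp encode chemokines stored in platelet granules, Treml1 a receptor held in the same granules and F2r the thrombin receptor PAR1, which is not the main thrombin receptor of mouse platelets. Hematopoietic stem cells share Vwf, Itga2b and other genes with this lineage, and stem cells with Vwf are known as platelet-biased.

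On GRCm38, Ppbp (chr5:90768518-90770063) and Pf4 (chr5:90772435-90773383) lie 2371 bases apart on the plus strand. Gp9 lies at chr6:87778072-87779768 and Vwf at chr6:125546774-125686679, both on the plus strand. Gp1bb (chr16:18620317-18622403) and Gp5 (chr16:30307685-30310779) are on the minus strand of the same chromosome, Itga2b (chr11:102453297-102470122) and F2r (chr13:95601803-95618487) are on the minus strand, and Treml1 (chr17:48359916-48367176) is on the plus strand. Sept5 overlaps Gp1bb on the same strand and shares 1902 of its 2087 exonic bases (91.1%), so reads there may not be assigned to 1 gene. Sept5 had 11 UMIs in MegP-like cells against 13222 of Gp1bb. The regions around the transcription starts of Pf4, Gp9 and Gp5 are shown because these are the members whose window, 250 bases before to 50 after the start in RefSeq on GRCm38.p6, holds both a GATA motif and an ETS motif, the letters read by the factor families that drive megakaryocyte genes. Capitals mark GATAA (or TTATC on the other strand) and AGGAAG (or CTTCCT), and each sequence reads 5′ to 3′ on the strand of its gene.
Pf4, chr5:90772185-90772484, plus strand: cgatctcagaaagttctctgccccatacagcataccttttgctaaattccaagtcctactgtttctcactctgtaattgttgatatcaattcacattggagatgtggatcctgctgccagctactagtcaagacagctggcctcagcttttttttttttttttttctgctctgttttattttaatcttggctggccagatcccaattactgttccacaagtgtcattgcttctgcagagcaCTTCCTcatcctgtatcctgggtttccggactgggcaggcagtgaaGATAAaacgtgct
Gp9, chr6:87777820-87778119, plus strand: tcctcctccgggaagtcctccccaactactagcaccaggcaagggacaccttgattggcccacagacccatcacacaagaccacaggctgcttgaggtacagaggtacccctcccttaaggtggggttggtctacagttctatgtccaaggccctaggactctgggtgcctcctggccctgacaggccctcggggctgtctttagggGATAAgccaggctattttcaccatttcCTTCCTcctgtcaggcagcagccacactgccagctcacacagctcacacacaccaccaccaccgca
Gp5, chr16:30310732-30311031, minus strand: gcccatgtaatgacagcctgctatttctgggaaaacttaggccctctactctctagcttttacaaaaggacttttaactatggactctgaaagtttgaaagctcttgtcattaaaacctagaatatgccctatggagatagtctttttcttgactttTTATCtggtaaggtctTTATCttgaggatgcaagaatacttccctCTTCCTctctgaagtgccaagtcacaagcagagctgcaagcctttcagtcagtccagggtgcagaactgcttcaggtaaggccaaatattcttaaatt
Of the 8 members with an entry, 3 held GATAA and 5 held AGGAAG, against 25.4% and 35.4% of 32851 promoters of the same length. Gp1bb and Itga2b held only the ETS letters, and F2r, Ppbp and Treml1 held neither. A match is a description of the sequence, and binding was not measured.

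All 9 genes had their highest mean level in MegP-like cells, but the genes differed in how much they kept to that class. MegP-like cells held 97.2% of all Ppbp UMIs in assigned cells, 96.5% of Pf4, 96.4% of Gp1bb, 95.9% of Treml1 and 88.0% of Vwf. The share was 76.5% for Gp9 and 73.5% for Gp5, and lower still for Itga2b (61.8%) and F2r (54.2%). Pf4 averaged 19025 CPM in MegP-like cells and 84.7 CPM in neutrophil-like cells, the class next to it, with higher values in 16 of 16 mice. Itga2b averaged 1327 CPM in MegP-like and 471 CPM in basophil-like cells, again with no overlap over the mice. The ranges over mice overlapped with the next class for 2 members. F2r had 224 CPM in MegP-like cells and 161 CPM in an unnamed cluster led by Trib2, Clec4d and Slc45a3 over 13 mice with both, and was higher in MegP-like cells in 12 of the 13, and Ppbp was higher there in 11 of 12 mice than in another unnamed cluster. These levels are descriptions of clusters and were not tested.

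**Figure D1:**
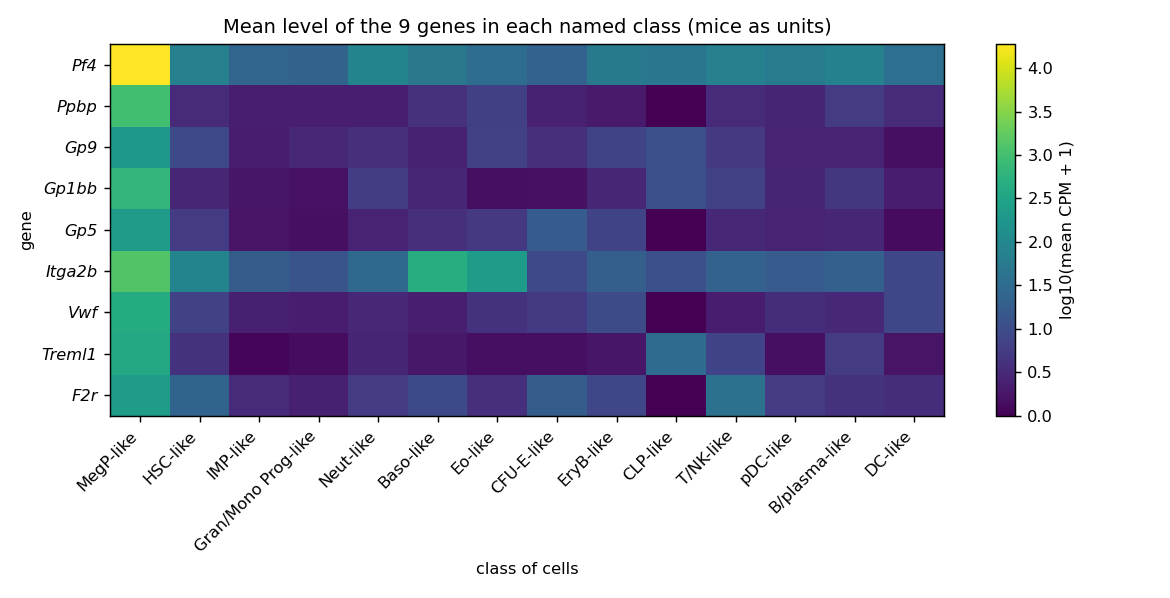
Color gives log10(mean CPM + 1) over mice for each of the 9 genes (vertical axis) in each named class of cells (horizontal axis), where Prog stands for progenitor, IMP for immature myeloid progenitor, CFU-E for colony-forming unit erythroid, EryB for erythroblast and CLP for common lymphoid progenitor. The MegP-like column is the brightest for every gene, and Itga2b is also bright in the basophil-like column (471 CPM).

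Over the 14 named classes, the genes outside the 9 whose levels followed the mean of the 9 most closely were Rbpms2 (Pearson r 0.984), Gm43570 (0.983), Fhl1 (0.981), Gm42517 (0.979) and Cc2d2b (0.979), on the log2(CPM + 1) scale. Among the members themselves, Ppbp (0.971) and Pf4 (0.967) followed the mean most closely and Itga2b (0.735) least. To Vwf alone, the closest were Adgrg2 (0.962), Adamtsl5 (0.954), 9030204H09Rik (0.949), Gm10419 (0.948) and Reep2 (0.945). The classes share mice and libraries, and MegP-like cells set most of each r.

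Within the MegP-like class the members were not evenly spread. Clustering of all cells together split off 168 cells led by Ppbp, Clec1b and Cald1, with a median of 25486 UMIs and 5074 genes per cell against 4383 UMIs and 1926 genes in the other 1993 cells, and these are called large cells here. Large cells gave 97.6% of the Ppbp UMIs of the class and 70.3% to 77.0% of those of Gp5, Gp1bb, Treml1 and Gp9. They gave 61.7% of Pf4, 54.5% of Vwf and 48.5% of Itga2b UMIs, and 27.0% of those of F2r. As levels, Ppbp was at 3910 CPM in large and 40.0 CPM in other cells (97.7-fold), Gp9 at 565 and 69.3 CPM (8.15-fold), and Gp1bb at 1944 and 277 CPM (7.03-fold). Pf4 differed 3.93-fold, Vwf 2.92-fold and Itga2b 2.29-fold, whereas F2r was at 220 CPM in large and 245 CPM in other cells. Whether large cells are single cells or groups of cells was not tested.

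Large cells were unevenly divided among mice. Their number per mouse was 4, 18, 6 and 2 with vehicle and 26, 0, 5 and 1 with IL1β in WT mice, and 19, 34, 11 and 4 with vehicle and 9, 24, 1 and 4 with IL1β in Tet2-KO mice. They gave 75.5% of the MegP-like UMIs in WT vehicle mouse 2 and 71.9% in Tet2-KO vehicle mouse 2, and 0% to 48.3% in the other 14 mice. These 2 mice had the fewest assigned cells of all 16, 698 and 1259. In each group the library of mice 1 and 2 had a larger share of MegP-like cells with at least 20000 UMIs (4.07% to 17.3%) than that of mice 3 and 4 (1.28% to 7.47%). In counts summed over a class, fewer large cells and less RNA of a gene per cell cannot be told apart.

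**Figure D2:**
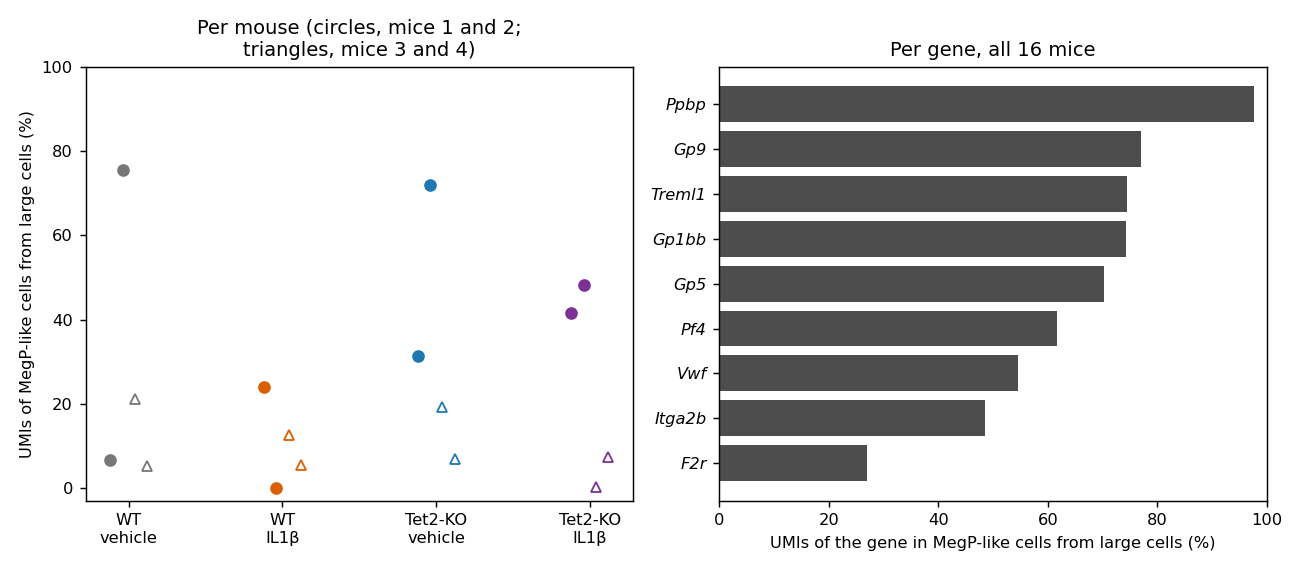
Left, share of the UMIs of MegP-like cells that came from large cells (vertical axis, %) for each of the 16 mice by group, with circles for mice 1 and 2 and triangles for mice 3 and 4. Right, share of each gene's UMIs in MegP-like cells that came from large cells (horizontal axis, %), from 97.6% for Ppbp down to 27.0% for F2r.

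From here on, levels in these 2 classes are scaled with the size factors of the test unless said otherwise. The levels of the 9 genes in MegP-like cells over the 16 mice ranged less for F2r and Itga2b than for the other members. F2r ranged 1.94-fold, from 153 to 297 CPM, and Itga2b 3.04-fold, from 832 to 2530 CPM. Vwf (239 to 958 CPM) ranged 4.00-fold and Pf4 (7386 to 44810 CPM) 6.07-fold. Gp5 and Gp1bb ranged 10.7-fold, Treml1 11.7-fold and Gp9 20.0-fold (29.9 to 598 CPM). Ppbp was the widest, from 16.8 CPM in WT IL1β mouse 2, which had no large cell and 7 Ppbp UMIs, to 4216 CPM in Tet2-KO vehicle mouse 2.

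**Figure D3:**
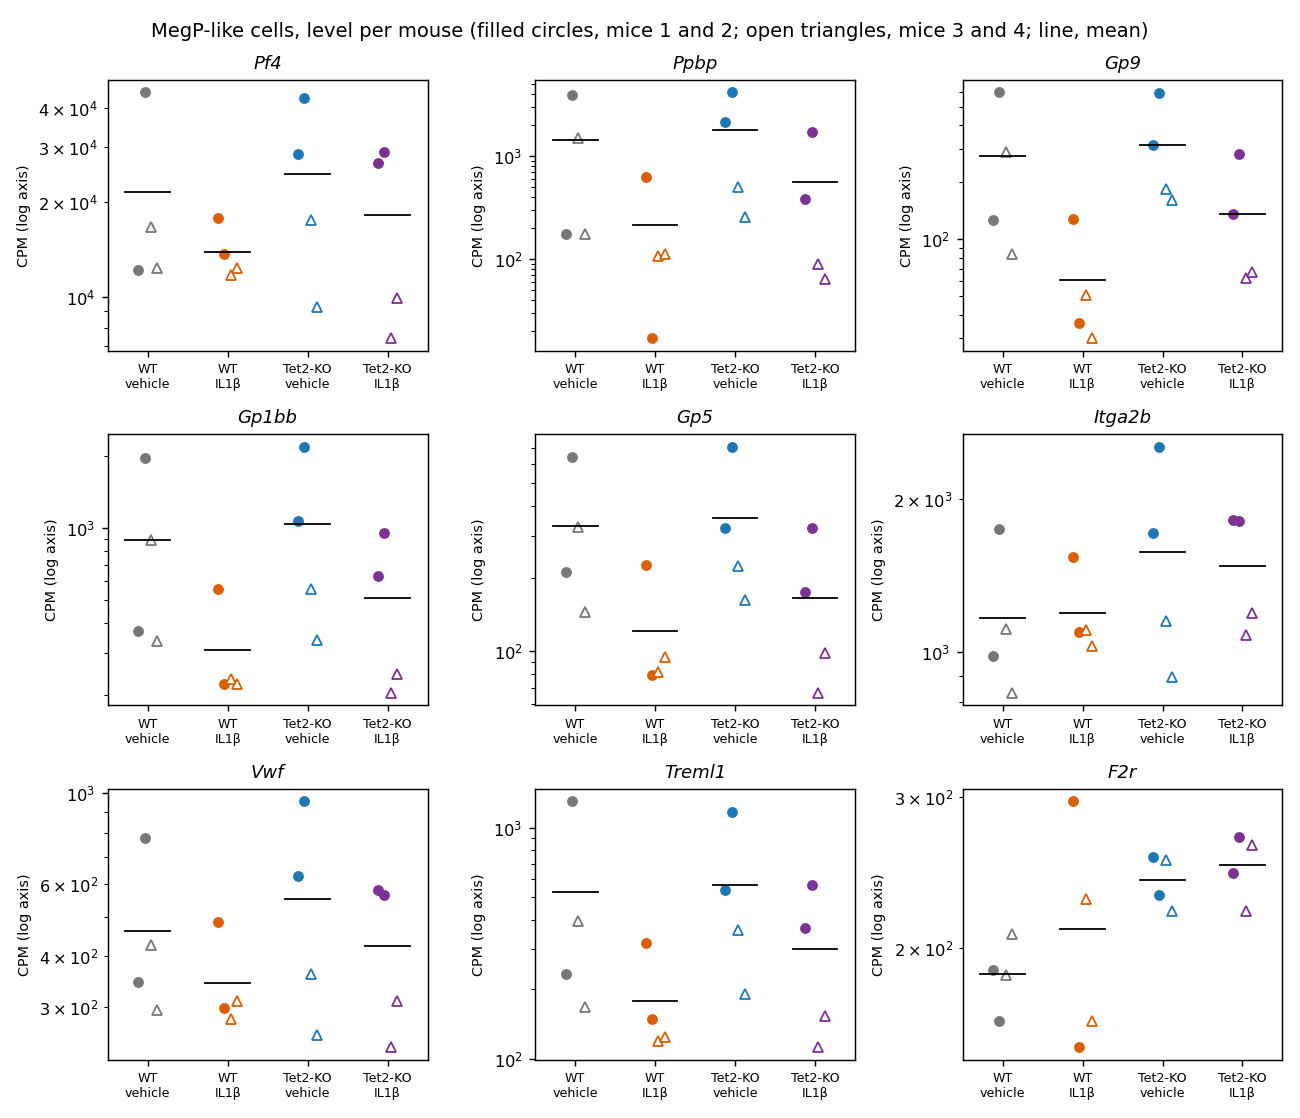
Each panel gives the level of 1 gene in MegP-like cells (CPM, log axis) for the 4 mice of each group, with filled circles for mice 1 and 2, open triangles for mice 3 and 4 and a line at the mean. Gp9 in WT mice lies at 84.0 to 598 CPM with vehicle and at 29.9 to 127 CPM with IL1β, and F2r varies least.

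To ask whether IL1β changed the platelet genes in megakaryocyte progenitors, mice with IL1β were compared with vehicle mice of the same genotype. Gp9 in WT mice was at 127, 598, 288 and 84.0 CPM with vehicle and at 127, 35.9, 50.9 and 29.9 CPM with IL1β, and the groups met at mouse 1 of the IL1β group. Its log2 fold change was -2.02 (SE 0.63, adjusted p = 0.078). Gp1bb was at 371, 1957, 887 and 337 CPM with vehicle and at 553, 223, 234 and 223 CPM with IL1β (log2 fold change -1.50, SE 0.63, adjusted p = 0.18). For both genes 3 of the 4 IL1β mice were below all vehicle mice. Gp5 (-1.39, SE 0.55), Treml1 (-1.52, SE 0.65) and Ppbp (-2.67, SE 1.19) had the same sign with adjusted p of 0.16, 0.19 and 0.21. Pf4 (-0.63, SE 0.49), Vwf (-0.41, SE 0.38), Itga2b (0.03, SE 0.28) and F2r (0.20, SE 0.17) were closer to 0.

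No member of the 9 passed an adjusted p of 0.05 in WT mice, where 3.49% of 8396 tested genes did (0.953% higher and 2.54% lower), although 5 members had an unadjusted p under 0.05 and DESeq2 called 1 (Gp9). The shares of all genes at an unadjusted p under 0.05 or called by DESeq2 are not given here. Such counts, here and below, are no result about a list of genes as a group. Gp9 also passed without WT IL1β mouse 1 or without WT vehicle mouse 4 (log2 fold changes of -2.79 and -2.31), and was at -1.29 (adjusted p = 0.29) without WT vehicle mouse 2. Over fits that left out 1 mouse, the values in WT mice ran from -1.98 to -0.75 for Gp1bb, from -1.97 to -0.84 for Gp5, from -2.02 to -0.52 for Treml1 and from -4.15 to -1.42 for Ppbp, each nearest to 0 without WT vehicle mouse 2. In Tet2-KO mice Gp9 ran from -1.82 to -0.63, nearest to 0 without vehicle mouse 2 of that group. Mice of the same pool number deviated together in MegP-like cells, and with the pool number as a block 4 of 9 fell with IL1β in WT mice, where 7.84% of all genes were called, 2.64% higher and 5.19% lower. These were Gp9 (log2 fold change -2.09, SE 0.45, adjusted p = 0.010), Gp5 (-1.43, SE 0.37, adjusted p = 0.026), Gp1bb (-1.49, SE 0.43, adjusted p = 0.039) and Treml1 (-1.44, SE 0.41, adjusted p = 0.039). The block left Ppbp at -2.86 (SE 0.89, adjusted p = 0.053).

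In Tet2-KO mice 0 of 9 members passed, against 4.91% of all genes (2.16% higher and 2.75% lower), with 0 of 9 at an unadjusted p under 0.05 and 0 by DESeq2. Gp9 was at 315, 591, 185 and 160 CPM with vehicle and at 136, 280, 62.4 and 66.9 CPM with IL1β (log2 fold change -1.16, SE 0.59, adjusted p = 0.26). Within each pool number both IL1β mice were below both vehicle mice for Gp9. Gp5 was at -1.07 (SE 0.53), Gp1bb at -1.03 (SE 0.61), Treml1 at -0.90 (SE 0.63) and Ppbp at -1.64 (SE 1.14). Leaving out 1 mouse at a time gave -1.65 to -0.47 for Gp5, -1.53 to -0.35 for Gp1bb, -1.41 to -0.25 for Treml1 and -3.31 to -0.75 for Ppbp. With the block 0 of 9 passed, against 8.75% of all genes (3.84% higher and 4.92% lower), and Gp5 (adjusted p = 0.059) and Gp9 (adjusted p = 0.072) came nearest. The IL1β effect was not shown to differ between genotypes for any member, and for Gp9 the difference was 0.86 (SE 0.85, adjusted p = 1.0).

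Without the large cells the IL1β values of the receptor subunits were smaller and varied less. This comparison was chosen after the data were seen. Gp9 in WT mice was then at 112, 128, 74.7 and 74.0 CPM with vehicle and at 58.0, 35.9, 43.8 and 20.9 CPM with IL1β, and the groups no longer overlapped. In Tet2-KO mice it was at 83.5, 122, 104 and 100.5 CPM with vehicle and at 79.7, 55.3, 56.1 and 64.3 CPM with IL1β, again with no overlap. With the pool number as a block Gp9 fell in WT (log2 fold change -1.08, SE 0.21, adjusted p = 0.0014) and in Tet2-KO mice (-0.72, SE 0.19, adjusted p = 0.0075). Gp1bb fell in both (-0.58, SE 0.16, adjusted p = 0.020, and -0.54, SE 0.16, adjusted p = 0.014). Gp5 fell in Tet2-KO mice (-0.66, SE 0.17, adjusted p = 0.0080) and was at -0.55 (SE 0.18, adjusted p = 0.054) in WT mice. Itga2b rose in WT mice (0.38, SE 0.12, adjusted p = 0.038) and was at 0.20 (SE 0.12, adjusted p = 0.22) in Tet2-KO mice. Of all 7871 genes tested this way 10.8% were called in WT mice, 3.68% higher and 7.17% lower. In Tet2-KO mice 20.8% were called, 8.17% higher and 12.6% lower. Without the block 1 member was called in WT (Gp9) and 2 in Tet2-KO mice (Gp9 and Gp5), all lower, against 10.0% of all genes in WT (3.18% higher and 6.82% lower) and 20.0% in Tet2-KO mice (7.71% higher and 12.3% lower).

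Ppbp without large cells rested on few UMIs. Its level was 14.3 to 70.8 CPM with vehicle and 8.04 to 45.9 CPM with IL1β in WT mice, from 100 and 135 UMIs in all, and its log2 fold change with the block was -0.87 (SE 0.33, adjusted p = 0.088). In Tet2-KO mice it was 0.33 (SE 0.30, adjusted p = 0.47), against -1.78 with large cells in. Treml1 was at -0.57 (SE 0.20, adjusted p = 0.074) in WT and at -0.35 (SE 0.19, adjusted p = 0.20) in Tet2-KO mice. Pf4 (-0.13 and -0.28), Vwf (0.01 and -0.04) and F2r (0.20 and -0.05) were near 0 in WT and Tet2-KO mice without large cells.

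**Figure D4:**
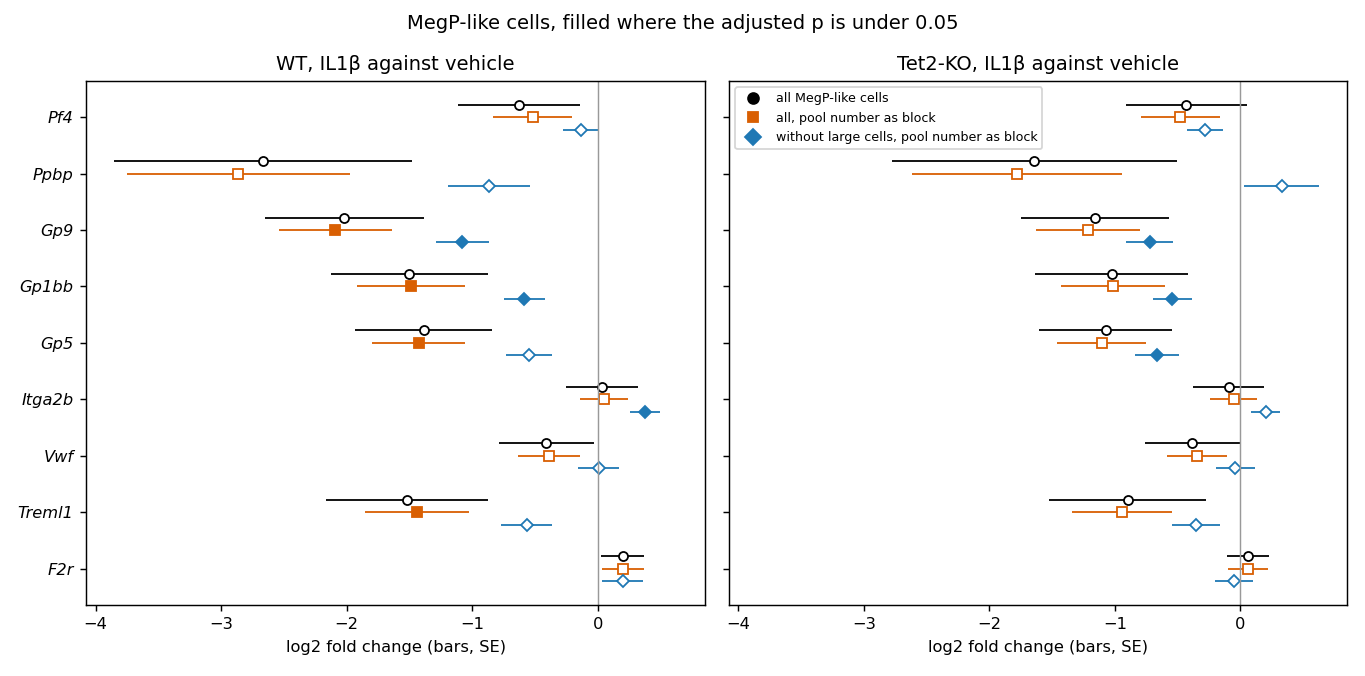
Log2 fold change of IL1β against vehicle in MegP-like cells (horizontal axis, bars give the SE) for each gene in WT (left) and Tet2-KO mice (right), for all cells, for all cells with the pool number as a block and for cells without the large ones with that block. Filled symbols have an adjusted p under 0.05, and Gp9 and Gp1bb lie left of 0 in every fit while F2r stays near 0.

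Shares of MegP-like cells with a UMI, among cells with at least 2000 UMIs that were each thinned to 2000, weigh each cell alike. This measure too was chosen after the data were seen. Large cells stayed in, so their number still enters these shares. They were 43.9% of the MegP-like cells of WT vehicle mouse 2 and 45.95% of those of Tet2-KO vehicle mouse 2. In the other mice they were 0% to 18.75%. Gp9 was found in 20.7% ± 13.1 (SD, n = 4) of MegP-like cells of WT vehicle mice and in 7.71% ± 2.95 with IL1β, and in 22.7% ± 10.7 and 10.3% ± 3.08 in Tet2-KO mice. The IL1β mice lay below all vehicle mice in both genotypes, from 4.35% to 10.99% against 11.8% to 40.0% in WT and from 6.25% to 13.2% against 14.7% to 38.4% in Tet2-KO mice. Each two-sided exact permutation p was 0.0286, the smallest that 4 against 4 mice allow, and 0.51 after adjustment over the 36 comparisons of 9 genes and 4 contrasts. No other member separated the groups in this way, and Itga2b in WT mice (83.4% ± 1.91 with IL1β, 72.1% ± 8.51 with vehicle, n = 4 each) came nearest with an exact p of 0.057. The share of all genes whose groups lie apart with 4 against 4 mice is not given. A lack of overlap, here, above and below, is thus a description of the values and no test.

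Genotype was compared within each treatment. None of the 9 members passed in MegP-like cells of Tet2-KO against WT mice with vehicle or with IL1β, where 0% of all genes were called. At an unadjusted p under 0.05 there was 1 member with vehicle and 0 with IL1β, and DESeq2 called 0 in both. The 1 was F2r, at 255, 231, 254 and 221 CPM in Tet2-KO and 188, 164, 186 and 208 CPM in WT vehicle mice (log2 fold change 0.36, SE 0.17, adjusted p = 1.0), groups that did not overlap. With IL1β the F2r groups overlapped, at 221 to 270 CPM in Tet2-KO and 153 to 297 CPM in WT mice. All 9 members had a log2 fold change above 0 in both comparisons, with medians of 0.23 with vehicle and 0.44 with IL1β against 0.003 and 0.013 over all genes. Without large cells the medians were 0.16 and 0.14, and Ppbp with vehicle (-0.33) and Pf4 (-0.07) and Gp5 (-0.09) with IL1β were below 0. The share of MegP-like cells among assigned cells did not separate the groups either, at 3.80% (WT) and 3.95% (Tet2-KO) with vehicle and 4.42% and 3.55% with IL1β (exact permutation tests, adjusted p = 0.80 in all 4 comparisons). With cells without a hashtag call kept in, the share per library was 2.436% and 2.526% (vehicle) and 4.314% and 3.719% (IL1β) in WT mice. In Tet2-KO mice it was 2.979% and 2.781% with vehicle and 3.498% and 2.977% with IL1β. These library values lay apart for IL1β in WT mice and for genotype within each treatment. They overlapped for IL1β in Tet2-KO mice, and none of this was tested.

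Other genes of platelets were read from the same fits. Of a list of 32 further platelet genes, 29 were tested in MegP-like cells, and 0 were called with IL1β in either genotype, with 7 at an unadjusted p under 0.05 in WT and 2 in Tet2-KO mice. In both genotypes 28 of the 29 were below 0, with a median of -0.71 in WT and -0.53 in Tet2-KO mice against 0.0042 and 0.0028 over all genes. Over all genes 3.49% and 4.91% were called. With the block 7 fell in WT animals, where 5.19% of all genes were called lower, and 0 passed in Tet2-KO animals, where 8.75% of all genes did. The largest were Myl9, a myosin light chain (-3.97, SE 1.06, adjusted p = 0.029), Cd226, an adhesion receptor (-2.87, SE 0.49, adjusted p = 0.0041), Alox12, a lipoxygenase of platelets (-2.72, SE 0.75, adjusted p = 0.034) and Tspan9, a tetraspanin (-2.33, SE 0.66, adjusted p = 0.038). Cd226 was at 140, 91.1, 60.0 and 7.53 CPM in WT vehicle mice and at 18.8, 2.39, 4.52 and 7.48 CPM with IL1β, so the groups overlapped through vehicle mouse 4. Without large cells 22 were tested, their medians with the block were -0.09 and -0.03, and Bin2 fell in WT (-0.46, SE 0.12, adjusted p = 0.015) while Itgb3, the partner chain of Itga2b, rose in Tet2-KO mice (0.46, SE 0.17, adjusted p = 0.049). In that fit 10.8% of all genes were called in WT and 20.8% in Tet2-KO mice, so these calls are no result about the list.

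Of 13 transcription factors of the lineage, Zfpm1 (FOG1, the partner of Gata1) fell with IL1β in MegP-like cells of WT mice (log2 fold change -0.53, SE 0.13, adjusted p = 0.034). It was at 332, 432, 366 and 376 CPM with vehicle and at 324, 249, 238 and 224 CPM with IL1β, with no overlap. It was the 1 factor called with large cells in, where 3.49% of all genes were called, and none was called in Tet2-KO mice, where 4.91% of all genes were and 2 factors had an unadjusted p under 0.05. Without large cells and with the block 3 of the 13 were called in each genotype, beside 10.8% of all genes in WT and 20.8% in Tet2-KO mice. Zfpm1 then fell in WT (-0.53) and Tet2-KO mice (-0.41, SE 0.11, adjusted p = 0.0085). Gata2, a factor of stem and early progenitor cells, rose in both (0.40 and 0.45, adjusted p = 0.033 and 0.0075), as did Fli1, an ETS factor of megakaryocytes (0.36 and 0.31, adjusted p = 0.024 and 0.023). Of markers of granulocyte and monocyte progenitors, 6 of 6 were detected in MegP-like cells, with a summed level of 84.4 to 212 CPM in WT vehicle and 368 to 785 CPM in WT IL1β mice, and 181 to 646 and 219 to 1025 CPM in Tet2-KO mice. These ranges were apart in WT and overlapped in Tet2-KO mice. Their part in these results was not tested.

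In HSC-like cells the platelet genes were low. Itga2b ranged from 43.0 to 123 CPM over the 16 mice, Pf4 from 24.3 to 174 CPM, F2r from 12.5 to 35.0 CPM, Gp9 from 1.56 to 13.3 CPM and Vwf from 2.27 to 16.1 CPM, from 131 UMIs in all. The ranges of Itga2b and Pf4 overlapped, and their order turned with the group, with means of 81.9 CPM for Itga2b and 108 CPM for Pf4 in Tet2-KO vehicle mice and 63.0 and 50.5 CPM in WT vehicle mice. Gp5 reached 8.83 CPM from 104 UMIs. Gp1bb (41 UMIs), Ppbp (50) and Treml1 (74) did not pass the filter on low counts, so 6 of the 9 members were tested. The kit counts transcript ends, so levels compare per UMI and not per length of transcript.

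Part of these UMIs may be free RNA caught with other cells, so the shares of cells with a UMI were compared over classes. The shares in HSC-like cells were set beside those in classes that do not belong to the lineage. Only cells with at least 4000 UMIs were used, each thinned to 4000, while the median of HSC-like cells was 3258 UMIs. Itga2b was in 25.4% of 2076 HSC-like cells (95% exact interval 23.6% to 27.4%), against 4.27% of granulocyte and monocyte progenitor-like and 10.8% of T/NK-like cells, so it lay above both. Pf4 was in 12.2% of HSC-like cells (10.9% to 13.7%), above the 5.40% of granulocyte and monocyte progenitor-like, 5.09% of CFU-E-like and 6.40% of immature myeloid progenitor-like cells. In T/NK-like cells it was in 19 of 166 (11.4%, interval 7.03% to 17.3%), which was not told apart from the HSC-like share at this depth. The Pf4 share differed by pool number, at 17.5% of HSC-like cells in mice 1 and 2 and 7.39% in mice 3 and 4. It was 17.3% and 5.88% in T/NK-like, 7.84% and 3.29% in granulocyte and monocyte progenitor-like, 8.11% and 3.23% in CFU-E-like and 9.47% and 4.04% in immature myeloid progenitor-like cells. F2r was in 6.31% of HSC-like cells, against 0.599% of granulocyte and monocyte progenitor-like and 12.7% of T/NK-like cells. Vwf was in 40 of the 2076 HSC-like cells or 1.93% (1.38% to 2.62%), against 0.539% of granulocyte and monocyte progenitor-like, 1.79% of CFU-E-like and 65.3% of MegP-like cells. In T/NK-like cells Vwf was in 2 of 166 (1.205%, interval 0.146% to 4.28%), which was not told apart from the HSC-like share. Of the same 2076 HSC-like cells, 60.7% had a UMI of no member, 29.2% of 1, 7.71% of 2 and 2.31% of 3 or more. At 2000 UMIs, 70.3% of 4821 HSC-like cells had a UMI of no member. Intervals cover counting error only.

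To ask whether IL1β shifted HSC-like cells toward the platelet genes, the same fit was read in this class. The 14 marker genes of the MegP-like class, none of them a member, were all detected in HSC-like cells, with a summed level per mouse of 673 to 829 CPM with vehicle and 724 to 1069 CPM with IL1β in WT and of 807 to 939 CPM and 932 to 1187 CPM in Tet2-KO mice. These ranges overlapped in both genotypes, and the part of this level in the results for this class was not tested. Itga2b was the 1 member of 6 that rose with IL1β in WT mice, where 13.9% of 9738 genes were called, 6.12% higher and 7.74% lower. It was at 43.0, 59.1, 72.1 and 77.97 CPM with vehicle and at 101, 97.1, 92.3 and 109 CPM with IL1β, and every IL1β mouse lay above every vehicle mouse. The log2 fold change was 0.58 (SE 0.16, adjusted p = 0.018). In Tet2-KO mice it was at 92.9, 71.9, 80.7 and 81.8 CPM with vehicle and at 81.3, 123, 87.7 and 97.2 CPM with IL1β (0.26, SE 0.14, adjusted p = 0.19), and the genotypes were not shown to differ (difference -0.32, SE 0.22, adjusted p = 1.0). Its mean in WT mice was also higher with IL1β in 6 of 7 other classes examined, all but T/NK-like cells. It was higher in granulocyte and monocyte progenitor-like cells, at 9.51 ± 3.77 CPM with vehicle and 17.5 ± 5.56 CPM with IL1β (SD, n = 4, not scaled with size factors), and in B/plasma-like cells, at 4.89 ± 3.89 and 18.5 ± 4.36 CPM, beside 60.6 ± 16.3 and 103 ± 8.06 CPM in HSC-like cells. These other classes were not tested, and the part of free RNA in the HSC-like value was not tested. The call was lost when cells were clustered jointly, where a second cluster named HSC-like was led by the inflammatory genes Tnip3, Tnf and Cxcl2 (0.38, adjusted p = 0.15), with marker gates (0.67, SE 0.41, adjusted p = 0.40) and without WT vehicle mouse 1 (0.43, adjusted p = 0.079). In the gated cells F2r was called instead (1.14, SE 0.25, adjusted p = 0.0091), where 84 of 6034 genes were called higher. These were not HSC-like cells alone. MegP-like cells were 7.84% to 35.7% of the gated cells per WT vehicle mouse and 13.04% to 37.5% per WT IL1β mouse, and F2r was at 236 CPM in the gated MegP-like and 32.3 CPM in the gated HSC-like cells of all groups. The part of this makeup in the call was not tested.

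Pf4 was the 1 member of 6 that fell with IL1β in HSC-like cells of Tet2-KO mice, where 22.6% of genes were called, 9.98% higher and 12.6% lower. It was at 130, 174, 61.4 and 65.9 CPM with vehicle and at 70.4, 72.2, 35.5 and 24.3 CPM with IL1β, and the groups overlapped. The overlap lay between pool numbers, and within each pool number both IL1β mice were below both vehicle mice. The log2 fold change was -1.01 (SE 0.34, adjusted p = 0.036). In WT mice Pf4 was at 31.3, 75.2, 56.8 and 38.6 CPM with vehicle and at 92.5, 86.6, 30.3 and 112 CPM with IL1β (0.70, SE 0.40, adjusted p = 0.26). The difference between the genotypes was -1.71 (SE 0.52, unadjusted p = 0.0032, adjusted p = 1.0). Over 7 other classes examined, and with no test, the mean of Pf4 was lower with IL1β in 6 in Tet2-KO mice (all but T/NK-like cells, at 51.2 ± 36.8 CPM with vehicle and 72.7 ± 81.8 CPM with IL1β) and higher in 5 in WT mice (all but T/NK-like and B/plasma-like cells). In Tet2-KO mice it was at 27.8 ± 11.9 CPM with vehicle and 15.2 ± 9.95 CPM with IL1β in granulocyte and monocyte progenitor-like cells and at 31.8 ± 14.7 and 11.8 ± 9.93 CPM in CFU-E-like cells. In WT mice it was at 16.1 ± 7.28 and 30.2 ± 11.03 CPM in the former and at 15.9 ± 8.59 and 23.6 ± 9.88 CPM in the latter (SD, n = 4). The part of free RNA in the HSC-like value was not tested. The call was lost without Tet2-KO vehicle mouse 1 (-0.82) or 2 (-0.78) and without Tet2-KO IL1β mouse 3 (-0.87) or 4 (-0.75). It was also lost with DESeq2 (-1.08, adjusted p = 0.11), limma voom (-0.99, adjusted p = 0.057) and pools as replicates (-0.65, adjusted p = 0.20), and the sign turned with marker gates (0.32, adjusted p = 0.81).

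**Figure D5:**
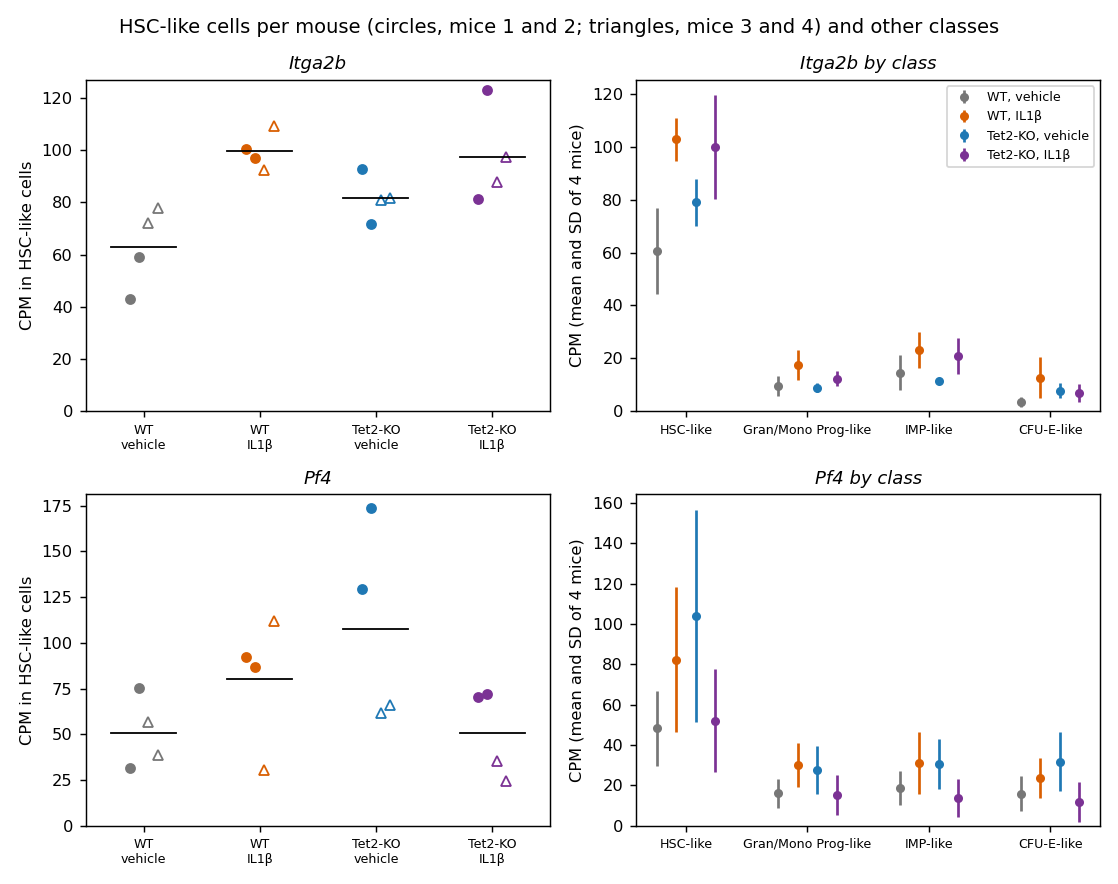
Left, level of Itga2b (top) and Pf4 (bottom) in HSC-like cells (CPM scaled with size factors) for each mouse, with circles for mice 1 and 2, triangles for mice 3 and 4 and a line at the mean. Right, mean and SD of 4 mice per group (CPM, not scaled with size factors) in HSC-like and 3 other classes, where Pf4 in Tet2-KO mice is lower with IL1β in each of the 4 classes and Itga2b stands above the other classes in HSC-like cells.

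The other 4 members tested in HSC-like cells did not pass with IL1β in either genotype. F2r was at 0.62 (SE 0.26, adjusted p = 0.12) in WT and 0.17 (SE 0.22, adjusted p = 0.62) in Tet2-KO mice. Vwf was at 0.11 (SE 0.42) and 0.70 (SE 0.41), Gp9 at -0.69 (SE 0.43) and 0.38 (SE 0.36), and Gp5 at -0.51 (SE 0.51) and -0.82 (SE 0.37), with adjusted p of 0.11 or more. Between genotypes 0 of 6 members passed with vehicle or with IL1β, where 0.0308% of all genes did in each. At an unadjusted p under 0.05 there were 2 with vehicle, Pf4 (1.11, SE 0.38) and Itga2b (0.33, SE 0.16), and 0 with IL1β, and DESeq2 called none.

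The share of HSC-like cells with a Vwf UMI was read for platelet bias. At 4000 UMIs it was 1.22%, 0%, 1.12% and 2.01% in WT vehicle mice, 3.16%, 0%, 2.59% and 4.88% with IL1β, 0.855%, 3.64%, 0% and 0% in Tet2-KO vehicle mice and 2.70%, 2.13%, 1.88% and 2.96% with IL1β. Only HSC-like cells with at least 4000 UMIs entered, a part that differed by mouse and group. They were 82 of 209, 19 of 53, 178 of 432 and 149 of 357 in WT vehicle mice. With IL1β they were 285 of 546, 79 of 146, 116 of 430 and 41 of 81. In Tet2-KO vehicle mice they were 117 of 455, 55 of 92, 97 of 663 and 139 of 543. With IL1β these were 74 of 92, 282 of 673, 160 of 387 and 203 of 449. Each share rests on 0 to 9 positive cells. The means were 1.09% and 2.66% in WT and 1.12% and 2.42% in Tet2-KO mice without and with IL1β, and two-sided exact permutation tests gave p = 0.23 and 0.17 (0.46 after adjustment over 4 comparisons). The genotypes differed by 0.03 points with vehicle (exact p = 1.0) and by -0.24 points with IL1β (exact p = 0.77). In WT mice the sign of the IL1β difference turned without thinning (-0.24 points) and at 2000 UMIs (-0.88 points). Leaving out 1 mouse at a time gave 0.83 to 2.45 points for IL1β in WT and 0.92 to 2.13 points in Tet2-KO mice. In cells of the HSC marker gate described next, which also took in MegP-like cells, the share was far higher, with means of 15.6% and 37.4% in WT (n = 3 mice each) and 18.6% and 16.3% in Tet2-KO mice (n = 4) without and with IL1β. The differences there were 21.9 points for IL1β in WT mice (exact p = 0.20) and -21.1 points for genotype with IL1β (exact p = 0.11), each 0.40 after adjustment, and they rest on 10 to 59 cells per mouse. MegP-like cells made up 9.76%, 35.7%, 7.84% and 8.77% of all gated cells in WT vehicle mice, 13.04% to 37.5% in WT IL1β mice, 4.55% to 13.6% in Tet2-KO vehicle mice and 7.69% to 14.3% in Tet2-KO IL1β mice, and the part of this makeup in the gate's values was not tested.

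The border between both classes was looked at in 2 ways. A gate that asked for a UMI of at least 3 HSC marker genes and none of several genes of other lineages, with no use of clusters, took 1116 HSC-like cells, 171 MegP-like cells and 84 cells of other classes. At 2000 UMIs Vwf was in 1.44% of the gated HSC-like cells and in 40.7% of the gated MegP-like ones, and Pf4 in 11.8% and 83.3%. Without thinning, 15.5% and 0% of these gated cells had a UMI of the stem cell receptor Procr, and 86.7% and 45.6% one of Hlf. Both genes are among those the gate asks for and among the markers for naming HSC-like cells, so this contrast is partly set by the selection. Joint clustering placed 217 of the 5608 HSC-like cells with MegP-like cells, 3.36% to 7.55% per WT vehicle mouse, 4.58% to 7.41% with IL1β, 1.98% to 2.58% per Tet2-KO vehicle mouse and 3.71% to 6.98% with IL1β. Itga2b was in 50.0%, Pf4 in 24.7% and Vwf in 5.79% of them, against 15.0%, 8.64% and 0.91% of the other HSC-like cells. These values describe cells on the border and were not tested.

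Of the 32 further platelet genes, 14 were tested in HSC-like cells, and 4 were called with IL1β in WT and 2 in Tet2-KO mice, where 13.9% and 22.6% of all genes were. Selp, the granule adhesion protein P-selectin, rose with IL1β in WT (log2 fold change 2.14, SE 0.44, adjusted p = 0.0023) and in Tet2-KO mice (1.45, SE 0.33, adjusted p = 0.0027). It was at 23.5, 0, 12.3 and 11.9 CPM in WT vehicle mice and at 73.6, 70.2, 50.3 and 39.1 CPM with IL1β, with no overlap, and at 67.5, 16.0, 17.6 and 18.8 CPM and 53.2, 69.4, 131 and 87.1 CPM in Tet2-KO mice. The Tet2-KO groups overlapped through vehicle mouse 1. In the joint clustering Selp was among the leading genes of the second HSC-like cluster, led by the inflammatory genes Tnip3, Tnf and Cxcl2. In WT mice 3 fell, Tbxa2r, the thromboxane receptor (-1.16, SE 0.37, adjusted p = 0.038), Bin2 (-0.46, SE 0.12, adjusted p = 0.012) and Nrgn (-0.40, SE 0.12, adjusted p = 0.025), and in Tet2-KO mice Bin2 fell (-0.40, SE 0.11, adjusted p = 0.010). The platelet list as a whole had medians of -0.15 in WT and -0.07 in Tet2-KO mice against 0.011 and 0.005 over all genes.

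The 13 factors were all tested in HSC-like cells, and 2 were called with IL1β in WT and 3 in Tet2-KO mice, shares near the 13.9% and 22.6% of all genes called, so these counts are no result about the factors as a group. Gata2 rose with IL1β in WT (0.49, SE 0.14, adjusted p = 0.023) and Tet2-KO mice (0.59, SE 0.13, adjusted p = 0.0028). Runx1, needed for the blood lineages and megakaryocytes, rose in WT mice (0.40, SE 0.11, adjusted p = 0.015), and Nfe2 (0.43, SE 0.14, adjusted p = 0.025) and Fli1 (0.38, SE 0.12, adjusted p = 0.023) rose in Tet2-KO mice. No factor fell. With joint clustering none of these was called, and Zfpm1 fell in both genotypes and Meis1 in Tet2-KO mice. Granulocyte and monocyte progenitor markers summed to 918 to 1828 CPM in HSC-like cells of WT vehicle mice and 1611 to 2273 CPM with IL1β, and to 947 to 1958 and 1638 to 2581 CPM in Tet2-KO mice, and their part was not tested. The 9 HSC markers summed to 1078 to 1638 CPM in WT vehicle mice and 932 to 1381 CPM with IL1β. In Tet2-KO mice they summed to 1479 to 2023 and 1199 to 1627 CPM.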

How the data were processed

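Lineage-depleted bone marrow cells of 16 mice were sequenced as 8 hashtagged 10x libraries. The values are UMI counts per gene and barcode, deposited by the authors. The submitters' processing notes name Cell Ranger 3.1.0, mm10 and Seurat 3.2.3, and no column of another sample was left out (0). Barcodes with under 750 genes or over 10% mitochondrial UMIs were removed, hashtags were read with Seurat 5.3.0 (HTODemux), and 3938 doublets and 33083 cells with no hashtag call were left out, which left 57896 cells. Scrublet marked 3.79% to 13.2% of the cells of a library as doublets, whose removal was an alternative.

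WT vehicle cells were clustered (2000 variable genes without the 9 members, 30 principal components, 20 neighbours, Leiden resolution 1), and other cells were projected onto them. Clusters were named from marker genes, which held no member, by at least 1 of 10 and 3 of 50 leading genes. These names were rebuilt and may differ from the study's. UMIs were summed per mouse and class (197538 to 3050350 in HSC-like and 411700 to 2907418 in MegP-like cells) and tested with edgeR 4.0.16 (quasi-likelihood, filterByExpr, TMM, all 4 groups in 1 fit), with Benjamini-Hochberg adjustment over all genes at 0.05. All adjusted p-values without another name are from that fit. Shares were compared with two-sided exact permutation tests of mice. Shares of cells with a UMI used only cells with at least 4000 UMIs, each thinned to 4000, unless said otherwise. The test was first checked on simulated data. R 4.3.3, limma 3.58.1, DESeq2 1.42.0, Python 3.11.15 and scikit-learn 1.9.0 were used.

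All 9 members were named in each comparison, further platelet genes and factors where called (at most 4 per direction), and the 5 genes nearest in level over classes. The members and lists were chosen with earlier results of these data known. Mice are the replicates, but 2 mice of a group shared each library, so library and group cannot be told apart within a library. Deviations of mice with the same pool number (1 and 2, or 3 and 4) correlated in all 6 pairs of groups in MegP-like cells (r = 0.237 to 0.485), and the pool number, given in the labels, was then used as a block beside the main values. In HSC-like cells r was -0.169 to 0.213. Leaving out the large cells, and the thinned shares in MegP-like cells, were alternatives chosen after the data were seen.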

Additional observations from a re-analysis of the deposited data

Results flagged for a closer look

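Of 61 sets of 4 mice, one for each gene, class and group, 8 held a mouse whose gap to the nearest other mouse exceeded Dixon's 95% limit as a share of the range, and chance alone gives about 1 in 20. In MegP-like cells of WT IL1β mice, mouse 1 stood above the other 3 for 6 genes. Its levels were 484 CPM for Vwf, 1537 CPM for Itga2b, 553 CPM for Gp1bb, 228 CPM for Gp5, 625 CPM for Ppbp and 319 CPM for Treml1. This mouse held 26 large cells, against 0, 5 and 1 in the other mice of its group. WT vehicle mouse 2 stood above the others for Pf4 in MegP-like cells, at 44810 CPM, and large cells gave 75.5% of its MegP-like UMIs. In HSC-like cells Treml1 was at 5.05 CPM in Tet2-KO IL1β mouse 2, from few UMIs (22 in the group).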

How the results depend on the processing

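Under alternatives other than leaving out a mouse, 99 values of the main comparisons were classed as the same, 16 as moved and 9 as turned in sign. Counts of members called are among these values. The class of a value does not show that its size was kept, and the Vwf share was far higher with marker gates. In HSC-like cells the 1 member called with IL1β became 0 in Tet2-KO mice (Pf4) with DESeq2, limma voom, marker gates and pools as replicates, 0 in WT mice with joint clustering (with marker gates it stayed 1, but F2r in place of Itga2b), and 2 in both genotypes without a filter on low counts, which also called 1 member between genotypes with vehicle and 1 for the difference in IL1β effect. The share of all genes called without that filter is not given here. In MegP-like cells of WT mice the 0 members called became 1 with DESeq2, with no filter and without large cells, 4 with the replicate block, and 3 without large cells and with the block. In Tet2-KO mice they became 2 and 3 without large cells, without and with the block. In HSC-like cells deviations of mice with the same pool number correlated at r of -0.169 to 0.213 over pairs of groups. Pf4 in Tet2-KO mice was lower in mice 3 and 4 than in mice 1 and 2 of each treatment, and the block changed no call (Itga2b 0.58 in WT and Pf4 -1.04 in Tet2-KO mice). Leaving out 1 mouse at a time gave 0 to 1 members in these 3 comparisons.

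The Vwf share turned with marker gates (IL1β in Tet2-KO mice, -2.31 points), without thinning (IL1β in WT -0.24, genotype with IL1β 0.23 and with vehicle -1.28), at 2000 UMIs (-0.88, 0.67 and -1.12) and, for genotype with IL1β, with joint clustering (0.028). Leaving out a mouse gave -1.13 to 0.50 and -0.80 to 0.41 points for genotype with IL1β and vehicle. The MegP-like share turned with joint clustering for genotype with vehicle (-0.11 points), and leaving out a mouse gave -0.50 to 0.84 there and -0.78 to 0.24 for IL1β in Tet2-KO mice.

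Single members turned sign as follows in log2 fold change, Pf4 in HSC-like cells of Tet2-KO mice being the 1 that had been called. Joint clustering gave F2r -0.21, Gp9 -0.032 (Tet2-KO), Pf4 -0.14 and Vwf -0.31 (WT) in HSC-like cells, marker gates gave Gp5 0.56 and Pf4 0.32 (Tet2-KO), Gp5 0.43 and Pf4 -0.045 (WT), and removal of Scrublet doublets gave Vwf -0.11 (WT). Without large cells, without and with the block, F2r was -0.049 and -0.051, Itga2b 0.20 and 0.20, Ppbp 0.38 and 0.33 in Tet2-KO mice and Vwf 0.07 and 0.007 in WT mice. Leaving out a mouse gave, in HSC-like cells, F2r -0.057 to 0.29 and Gp9 -0.096 to 0.52 in Tet2-KO and Vwf -0.23 to 0.39 in WT mice. In MegP-like cells it gave Itga2b -0.27 to 0.24 and Vwf -0.60 to 0.034 in Tet2-KO mice, and F2r -0.034 to 0.31, Itga2b -0.13 to 0.31 and Pf4 -0.80 to 0.03 in WT mice. The causes were not tested.

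Over all genes, 293 were called in MegP-like cells of WT and 412 of Tet2-KO mice. The block gave 658 and 735, leaving out large cells 787 and 1574, and both together 854 and 1637. Leaving out a mouse gave 0 to 397 and 21 to 573. Few MegP-like cells per mouse (41 to 383) and low counts in HSC-like cells limit what could be seen.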

Other observations

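Barcodes with under 750 genes were left out of every comparison. The Ppbp levels of those with at most 10% mitochondrial UMIs were 25.5 to 113 CPM per library. They were above those of the kept cells in 5 of 8 libraries, at 81.2 against 19.8 CPM (WT vehicle), 37.6 against 4.22 CPM (WT IL1β), 76.0 against 15.2 CPM (Tet2-KO vehicle) and 49.5 against 1.49 CPM (Tet2-KO IL1β) for mice 3 and 4, and at 34.1 against 22.5 CPM for WT IL1β mice 1 and 2. In the other libraries of mice 1 and 2 they were below, at 25.5 against 69.3 CPM (WT vehicle), 113 against 140 CPM (Tet2-KO vehicle) and 35.7 against 69.3 CPM (Tet2-KO IL1β). Vwf was lower in these barcodes than in the kept cells of each library, at 4.67 to 10.2 CPM against 8.93 to 36.5 CPM. Barcodes with over 10% mitochondrial UMIs, also left out, held Vwf at 101 and 24.5 CPM with vehicle and 41.2 and 12.4 CPM with IL1β in WT mice. In Tet2-KO mice it was at 109 and 84.4 CPM with vehicle and 35.4 and 14.6 CPM with IL1β. Other members are not given here, and no cause was tested.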
